A study of Mus musculus with 6 samples.

Results

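The 38 genes described here make cholesterol and fatty acids or control how much of them a cell makes. They were chosen by symbol, 21 for the sterol branch, which is driven mainly by the transcription factor SREBP2, and 17 for the fatty acid and glycerolipid branch, which is driven mainly by SREBP1. All 38 symbols were found among the 54532 genes of the deposited count table, and 37 had enough reads to be tested. RNA came from sorted Kupffer cells, which are macrophages that live in the liver sinusoids, in 6 libraries. The 3 libraries called Trem2_KO came from male Trem2-/- mice and the 3 called WT from wild-type littermates. All animals were 8 weeks old when a high fat diet began and were fed it for 8 weeks, so no library shows these genes on another diet. TREM2 is a macrophage surface receptor that binds lipids. The labels name no promoter or Cre line, so other cells of these mice may lack Trem2 as well.

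Cells make cholesterol from acetyl-CoA through mevalonate, squalene and lanosterol. When membranes hold little sterol, SREBP2 is carried from the endoplasmic reticulum to the Golgi, is cut, and turns these genes on, while the INSIG proteins hold it back when sterol is plentiful. SREBP1 acts on genes for fatty acid synthesis, desaturation and triglyceride assembly, and the oxysterol receptor LXR raises its transcript. Macrophages take up much of their lipid by phagocytosis, and hepatocytes are the main site of lipid synthesis in the liver.

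Promoter sequences are shown first because SREBP acts on its targets through promoters. Binding to the windows shown here was not measured. RefSeq windows (GRCm38.p6, 250 bases before to 50 after a transcription start) matched 33 of the 38 members by symbol, 17 sterol and 16 fatty acid. Fdps, Fdft1, Sqle, Stard4 and Fads1 had no entry. Printed below are 4 upstream windows, a called and an uncalled gene from each branch, cut where the first annotated exon begins. They are Insig1 (chr5:28071162-28071362, plus strand), Hmgcs1 (chr13:119690101-119690350, plus strand), Lpin1 (chr12:16610967-16611216, minus strand) and Fasn (chr11:120824548-120824797, minus strand). Capitals mark matches on either strand to any of 6 motifs, namely the sterol regulatory element TCACNCCAC, the CCAAT box read by NF-Y, the GC box GGGCGG read by Sp1, the E-box CACGTG, and direct repeats of the half-site AGGTCA spaced by 4 bases (read by LXR) or by 1 base (read by PPAR).
Insig1: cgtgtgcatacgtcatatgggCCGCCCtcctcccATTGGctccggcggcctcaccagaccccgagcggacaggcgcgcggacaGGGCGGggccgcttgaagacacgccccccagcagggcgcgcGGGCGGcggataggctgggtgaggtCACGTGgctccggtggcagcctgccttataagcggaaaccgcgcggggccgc
Hmgcs1: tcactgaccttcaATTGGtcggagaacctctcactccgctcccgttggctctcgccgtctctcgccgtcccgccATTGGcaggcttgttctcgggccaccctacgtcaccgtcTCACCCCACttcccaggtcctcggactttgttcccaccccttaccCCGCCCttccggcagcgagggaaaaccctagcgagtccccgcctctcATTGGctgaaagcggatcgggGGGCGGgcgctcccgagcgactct
Lpin1: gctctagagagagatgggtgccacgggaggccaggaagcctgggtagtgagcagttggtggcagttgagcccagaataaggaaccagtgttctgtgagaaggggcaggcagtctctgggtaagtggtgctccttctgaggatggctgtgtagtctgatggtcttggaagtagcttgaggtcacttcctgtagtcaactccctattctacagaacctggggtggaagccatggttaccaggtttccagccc
Fasn: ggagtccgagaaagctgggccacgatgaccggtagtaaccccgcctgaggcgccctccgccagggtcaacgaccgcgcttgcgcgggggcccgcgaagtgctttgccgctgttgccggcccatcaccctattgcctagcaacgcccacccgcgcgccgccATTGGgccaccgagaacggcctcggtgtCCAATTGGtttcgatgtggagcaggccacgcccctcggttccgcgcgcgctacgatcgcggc
The sterol regulatory element stands once in the Hmgcs1 window, 137 bases before the start. Insig1 holds 3 GC boxes, a CCAAT box and an E-box, Fasn holds 3 CCAAT boxes of which 2 overlap on opposite strands, and the Lpin1 window holds none of the 6 motifs.

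Over all matched members, CCAAT boxes were frequent and the exact sterol element was rare. A gene held a motif when any of its windows did, and the members had 42 windows. Shares of windows count each window singly. At least 1 CCAAT was found in 16 of 17 sterol members and 11 of 16 fatty acid members, against 43.2% of the tested genes that have a window and 37.4% of all 32851 windows. GC boxes were found in 16 of 17 sterol and 9 of 16 fatty acid members, against 66.3% of tested genes and 35.7% of windows. The sterol element matched in 2 members, Hmgcs1 and Mlxipl, against 1.38% of tested genes and 1.24% of windows. In Mlxipl it lay in the window at chr5:135106641-135106940, not in the one at chr5:135089640-135089939. The E-box matched in 7 of 33 members, against 11.6% of tested genes and 7.15% of windows. Neither nuclear receptor repeat matched in any member window, and they were found in 0.0152% (LXR) and 0.0396% (PPAR) of all windows. Of the 10 members called higher, 8 held a CCAAT box and 6 a GC box, and of the 21 matched members that were not called, 17 and 18 did. These are matches of letters in a short window and were not tested for use by any factor.

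The libraries held 15799351 to 17135603 reads. Trem2 was read at 84.2 to 89.97 CPM (counts scaled to library size with TMM) in WT and at 14.5 to 17.3 CPM in Trem2_KO, in the direction of the labels. Libraries of a group correlated at 0.9917 to 0.9931 (Pearson r of log2 CPM across genes), and their counts differed by more than sampling noise. Each library was counted as a sample, though such a difference does not show that the libraries come from different animals. The Kupffer cell marker Clec4f stood at 10998 to 12671 CPM in all 6 libraries. Beside the marker counts that follow, 15.3% of all tested genes were called higher and 15.1% lower. No marker list was tested against these shares. Of 12 Kupffer cell markers 10 were called lower in Trem2_KO and 0 higher, and their summed level was 50501 to 51947 CPM in WT and 45561 to 46373 CPM in Trem2_KO. Of 21 hepatocyte markers 6 were called higher and 8 lower, and their sum went from 1918 to 1994 CPM in WT to 1777 to 1806 CPM in Trem2_KO. Of 17 sinusoidal endothelial markers 13 were called higher and 2 lower, with a median log2 change of 0.44 but sums of 2112 to 2130 CPM in WT and 2085 to 2104 CPM in Trem2_KO. Of 11 tested stellate cell markers 2 were called higher and 0 lower, with a median log2 change of -0.39 but sums of 212 to 219.6 CPM in WT and 258 to 262 CPM in Trem2_KO. Monocyte markers summed to 551 to 567 CPM in WT and 516 to 539 CPM in Trem2_KO (4 of 10 called higher, 2 lower, median log2 change 0.21). Fewer cells of a type and less RNA per cell cannot be told apart in such sums. The other 6 marker lists each summed to 209.8 CPM or less in any library, and the neutrophil gene Ly6g had 0 reads in all 6. Single hepatocyte markers changed by -0.72 to 0.67 on the log2 scale, in both directions. The part of hepatocytes and of the other cell types in the member results was not tested.

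A gene was called when its Benjamini-Hochberg adjusted p from edgeR's quasi-likelihood test was under 0.05, over 13776 genes tested. In the fatty acid branch 9 of 17 members were called higher in Trem2_KO and 0 lower. In the sterol branch 1 of the 20 tested was higher and 2 were lower. In either direction 12 of 37 members were called, against 30.4% of all tested genes. Over all tested genes 15.3% were called higher and 15.1% lower, so the fatty acid share (52.9%) lay above that background and the sterol shares (5% higher, 10% lower) below it. The median log2 change was 0.27 in the fatty acid branch, -0.01 in the sterol branch (0.02 when scaled by total counts) and -0.01 over all tested genes. Without Trem2_KO replicate 3 the fatty acid median was 0.13. The 2 lower sterol calls were absent without any 1 of WT replicate 2, WT replicate 3 or any Trem2_KO replicate. The difference between the branches was not tested, since the members were chosen with earlier results of these data known. Whether the 3 libraries of a group are from different animals is not in the labels, and the p-values then reflect only how far these libraries spread, which may be technical.

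**Figure D1:**
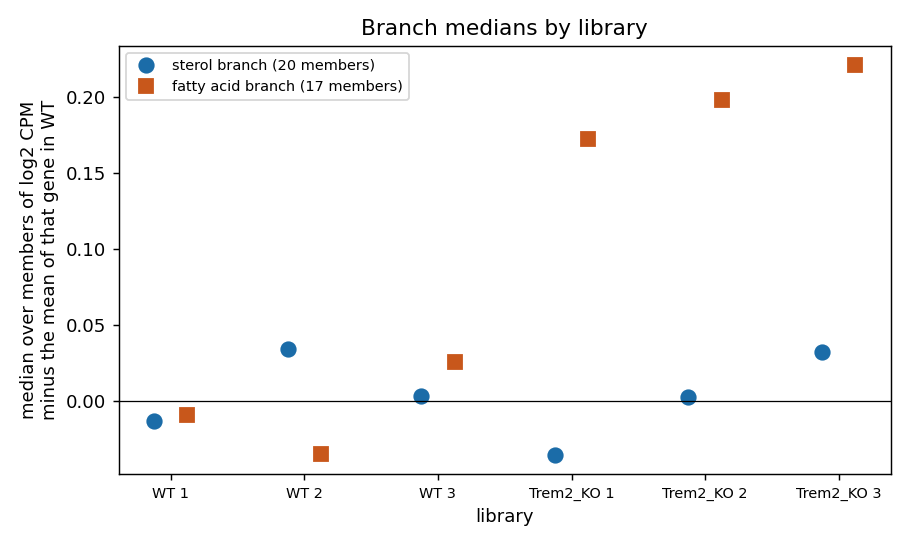
Median over the tested members of each branch of log2 CPM minus the mean of that gene in WT (y axis, log2 units), for each of the 6 libraries (x axis), circles for 20 sterol and squares for 17 fatty acid members. The 3 Trem2_KO squares lie between 0.17 and 0.22, above all WT squares, while the circles of both groups lie between -0.04 and 0.03.

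By library, the fatty acid medians were -0.01, -0.03 and 0.03 log2 units in WT and 0.17, 0.20 and 0.22 in Trem2_KO relative to the WT mean of each gene. For the sterol members the WT libraries gave -0.01, 0.03 and 0.00, and the Trem2_KO libraries -0.04, 0.00 and 0.03. The groups did not overlap for the fatty acid branch and overlapped for the sterol branch, where Trem2_KO replicate 1 was the lowest library. In summed deposited FPKM (counts scaled to gene length and library size), the fatty acid branch went from 213 to 214.9 in WT to 220.2 to 224 in Trem2_KO, and the sterol branch was at 92.7 to 97.9 and 93.9 to 98.5. Acly, which was not called, made up 38.7% to 39.5% of the fatty acid sum in WT and 35.3% to 36.6% in Trem2_KO.

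**Figure D2:**
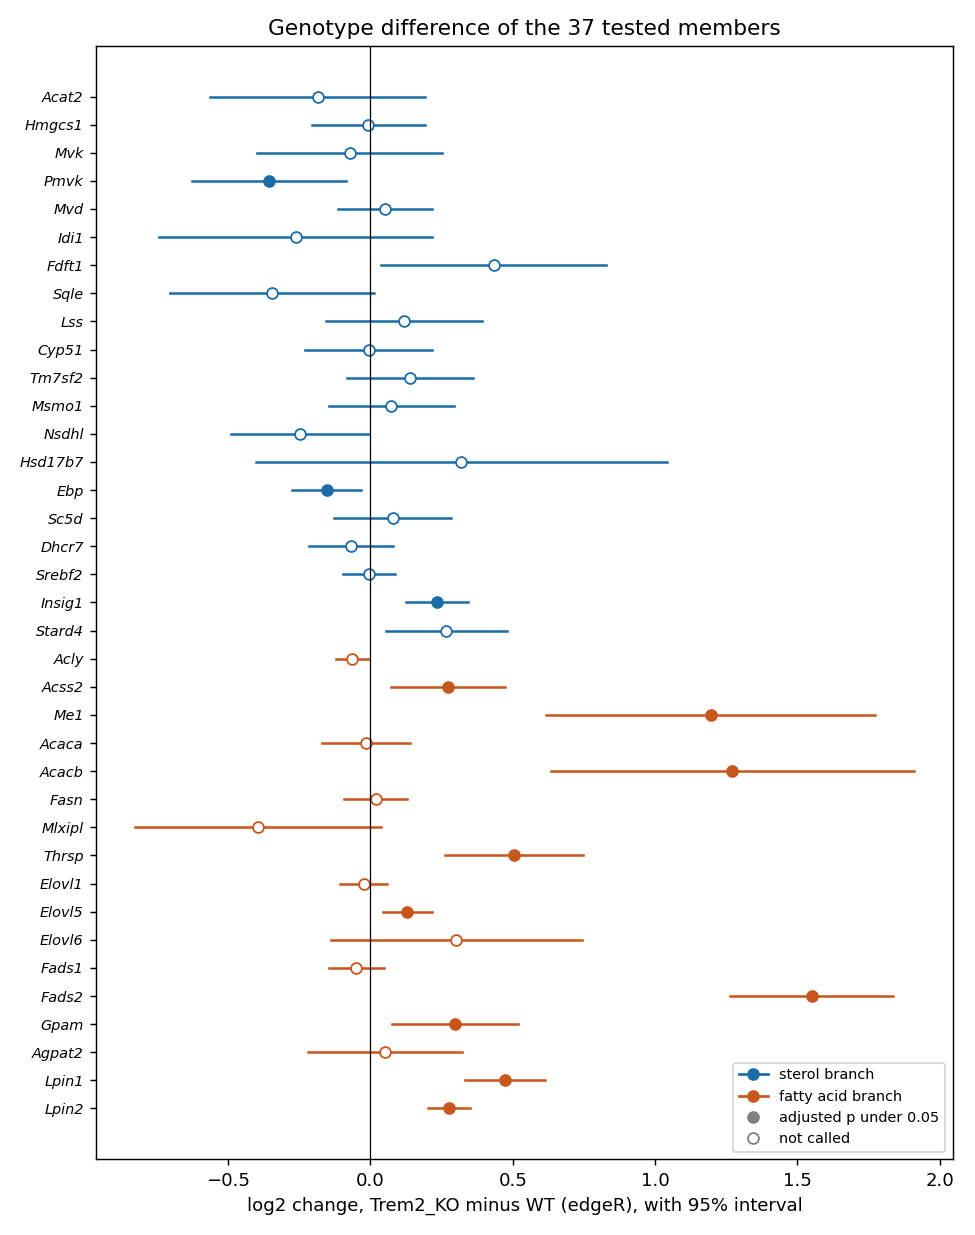
Log2 change of each of the 37 tested members, Trem2_KO minus WT (x axis), with the 95% interval of the edgeR fit (lines), ordered by role (y axis), filled where adjusted p is under 0.05. Fads2, Acacb and Me1 lie above 1, the other called fatty acid members lie between 0.13 and 0.50, and sterol members scatter on both sides of 0.

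Levels per length spanned several orders of magnitude. Acly (83.9 FPKM on average in WT), Elovl1 (41.4), Elovl5 (27.7) and Fads1 (24.7) were the only members above 20 FPKM, and all are in the fatty acid branch. The most abundant sterol member was Ebp (18.2 ± 0.459 FPKM in WT, SD, n = 3), followed by Insig1 (16.8 ± 0.29986), Srebf2 (12.7 ± 0.562) and Mvd (11.8 ± 0.949). Insig1 and Ebp exchanged places in Trem2_KO, at 19.7 ± 1.23 and 16.4 ± 0.459 FPKM (SD, n = 3). The ranges of Srebf2 and Mvd overlapped within WT. In each WT library Srebf2 was the higher (12.2 against 11.1, 13.3 against 12.8 and 12.6 against 11.4 FPKM). In Trem2_KO replicate 3 Mvd was the higher (12.5 against 12.1 FPKM), and the difference between these genes was not tested. Among the 17 fatty acid members 4 averaged under 1 FPKM in WT, and among the 21 sterol members 6 did. The lowest was Fdps (farnesyl diphosphate synthase), with 1 to 7 reads per library, which was not tested. Fdps overlaps the annotated gene Gm43738 on the same strand, which had 0 reads. How a read that fits both genes was counted was not stated, and whether the count of Fdps misses such reads was not tested.

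**Figure D3:**
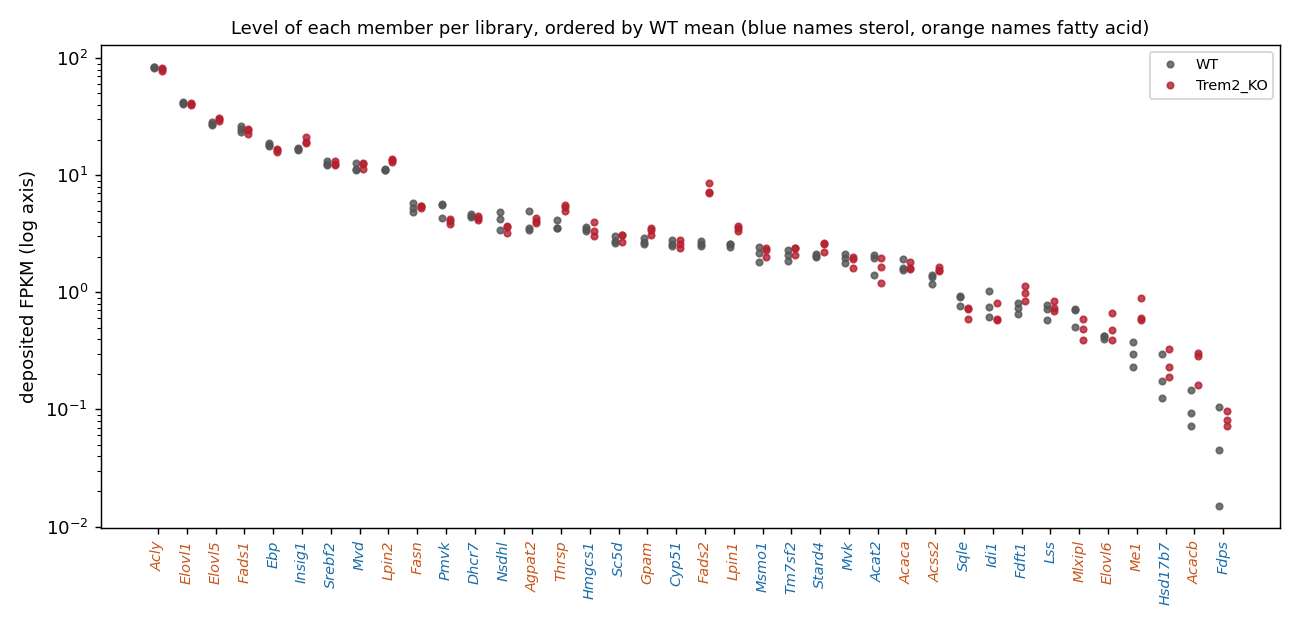
Deposited FPKM of all 38 members (y axis, log scale) in each library, WT in grey and Trem2_KO in red, ordered by the WT mean (x axis). Acly is the highest at 77.6 to 84.8 FPKM, and Fads2 is at 2.49 to 2.74 FPKM in WT and 7.10 to 8.60 FPKM in Trem2_KO.

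Counts by role, here and below, stand beside 15.3% of all tested genes called higher and 15.1% lower. No role was tested against these shares. In the mevalonate pathway, which builds the isoprenoid chain, 1 of 7 tested members was called lower and 0 higher. That gene was Pmvk, phosphomevalonate kinase, at 7.46, 9.51 and 9.70 CPM in WT and 7.27, 6.97 and 6.58 CPM in Trem2_KO. WT replicate 1 lay close to the Trem2_KO libraries and the groups did not overlap. Its log2 change was -0.36 (SE 0.135, edgeR adjusted p = 0.0381, n = 3 per group). Over the 16 alternative settings its adjusted p ran from 0.0117 to 0.161, and the call was lost without WT replicate 2 (0.142) or 3 (0.152) and without Trem2_KO replicate 1 (0.0543), 2 (0.0824) or 3 (0.114). Hmgcs1, the synthase that commits acetyl-CoA to the pathway and carries the sterol element printed above, was at 15.5, 16.8 and 16.2 CPM in WT and 15.6, 14.1 and 18.5 CPM in Trem2_KO. The groups overlapped, and the log2 change was -0.01 with a 95% interval from -0.21 to 0.19. Mvd, the decarboxylase and the member of this role with the highest FPKM, was at 20.6, 23.9 and 21.3 CPM in WT and 21.1, 23.6 and 23.4 CPM in Trem2_KO. These groups overlapped too.

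Fdft1, squalene synthase, was at 3.44, 2.75 and 3.13 CPM in WT and 3.58, 4.79 and 4.23 CPM in Trem2_KO. The groups did not overlap, but the log2 change of 0.43 (SE 0.196) was not called (edgeR adjusted p = 0.0903). Fdft1 overlaps Ctsb on the other strand, which had 1238380 reads over the 6 libraries against 359 for Fdft1 and changed by -0.09. The labels do not state whether counting used strand, so reads of the 2 genes may be mixed. The other mevalonate members (Acat2, Mvk and Idi1) had log2 changes of -0.18, -0.07 and -0.26, with overlapping groups.

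From squalene to cholesterol 0 of 10 members were called higher and 1 lower. Ebp, the sterol isomerase and the most abundant member of this role, was at 41.1, 43.3 and 42.5 CPM in WT and 38.4, 38.8 and 36.8 CPM in Trem2_KO. The groups did not overlap, and the log2 change was -0.15 (SE 0.0602, edgeR adjusted p = 0.0458). The call was lost when any 1 of the 6 libraries was left out (adjusted p = 0.0516 to 0.159), and over all 16 alternatives adjusted p ran from 0.0271 to 0.247. Sqle, squalene epoxidase and a rate-limiting enzyme after HMG-CoA reductase, was at 5.17, 4.21 and 5.11 CPM in WT and 4.10, 4.0 and 3.29 CPM in Trem2_KO. Its groups did not overlap, and the log2 change of -0.35 (SE 0.178) was not called (edgeR adjusted p = 0.14). Nsdhl, a sterol dehydrogenase with overlapping groups and a log2 change of -0.25, was called only without WT replicate 1 (edgeR adjusted p = 0.024, against 0.116 with all libraries).

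The other 7 members of that segment had overlapping groups. Dhcr7, which makes cholesterol in the last step of its route, had a log2 change of -0.07 with an interval from -0.21 to 0.08. Cyp51, the lanosterol demethylase, was at -0.01 (-0.23 to 0.22), and it overlaps Akap9 on the other strand, which was called higher (0.23). Lss, Tm7sf2, Msmo1 and Sc5d lay between 0.07 and 0.14 (Tm7sf2 overlaps Vps51 on the same strand), and Hsd17b7, with 10 to 29 reads per library, was at 0.32 with an interval from -0.40 to 1.04. Over the whole sterol branch 17 tested members were not called, and for 13 of them the 95% interval lay inside a 1.5-fold change in either direction.

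Of the 3 sterol regulation and transport members 1 was called higher and 0 lower. Srebf2, which encodes SREBP2 itself, was at 87.5, 95.6 and 90.6 CPM in WT and 89.8, 95.5 and 87.5 CPM in Trem2_KO. These groups overlapped, with a log2 change of -0.00 and an interval from -0.10 to 0.09. Insig1, the sterol-sensing anchor of SREBP and itself an SREBP target, was at 51.0, 52.1 and 53.0 CPM in WT and 59.5, 65.6 and 58.6 CPM in Trem2_KO. All Trem2_KO libraries were above all WT libraries, with a log2 change of 0.23 (SE 0.0545, edgeR adjusted p = 0.000615). Insig1 was called in all 16 alternatives (adjusted p up to 0.0213). Stard4, a sterol carrier of the cytosol, was at 11.9, 11.2 and 11.5 CPM in WT and 14.5, 12.5 and 14.7 CPM in Trem2_KO. It was not called (log2 change 0.27, SE 0.106, edgeR adjusted p = 0.0507) although the groups did not overlap, and it was called without Trem2_KO replicate 2 (0.0282) and in 3 other of the 16 alternatives, over which adjusted p ran up to 0.194.

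**Figure D4:**
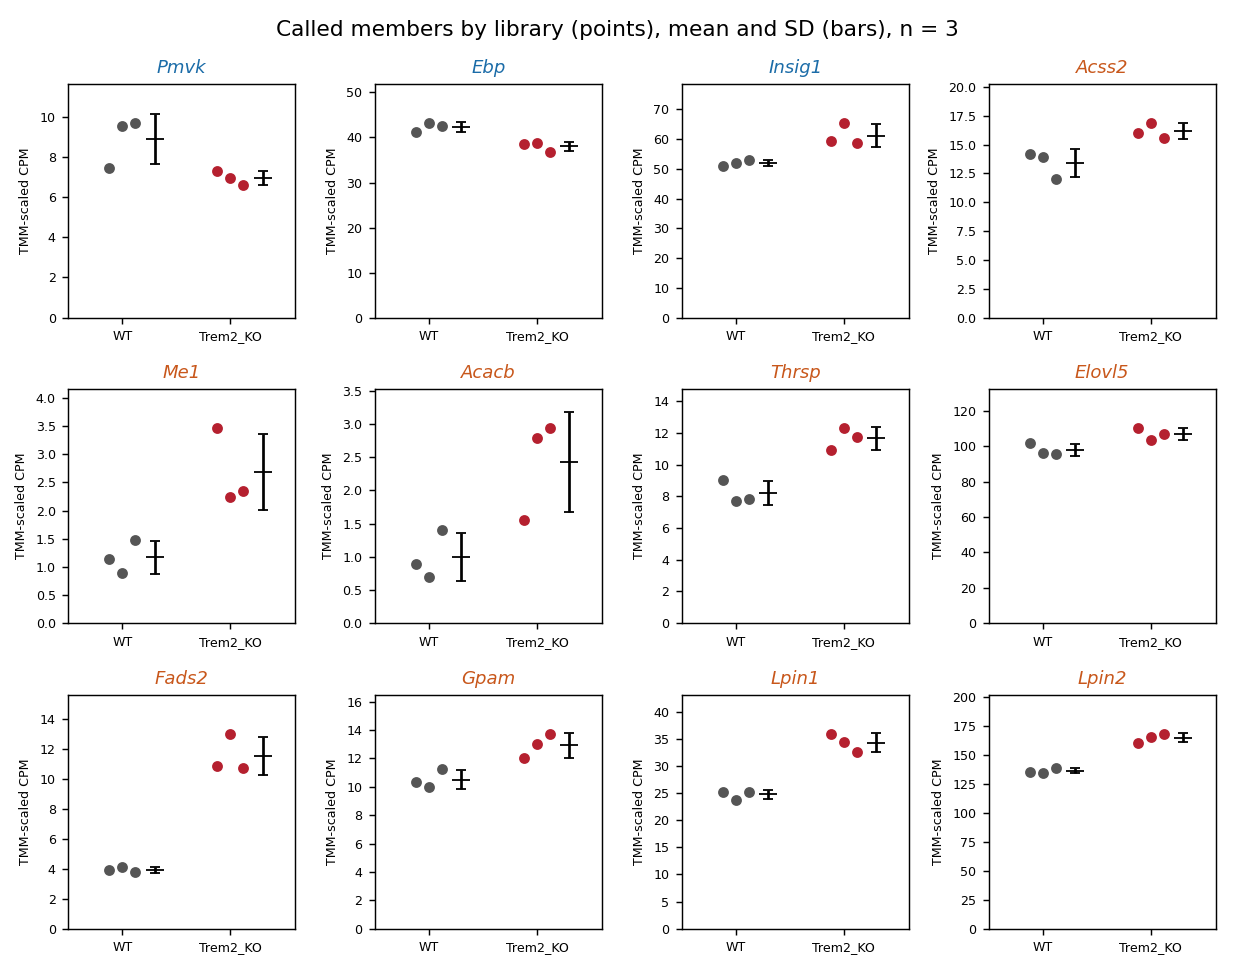
TMM-scaled CPM (y axes, from 0) of the 12 called members in each WT (grey) and Trem2_KO (red) library, with mean and SD (black bars, n = 3), sterol names in blue and fatty acid names in orange. The groups do not overlap in any panel, and the widest gap relative to the level is that of Fads2, at 3.77 to 4.15 CPM in WT and 10.8 to 13.03 CPM in Trem2_KO.

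In the fatty acid branch, the enzymes that supply acetyl-CoA and NADPH included 2 called higher of 3. Me1, the malic enzyme that makes NADPH, was at 1.15, 0.894 and 1.47 CPM in WT and 3.46, 2.24 and 2.35 CPM in Trem2_KO. All Trem2_KO libraries were higher, Trem2_KO replicate 1 most, and these values rest on 14 to 60 reads per library. The log2 change was 1.196 (SE 0.288, edgeR adjusted p = 0.000903). Acss2, which makes acetyl-CoA from acetate, was at 14.2, 13.9 and 12.002 CPM in WT and 15.99, 16.9 and 15.6 CPM in Trem2_KO. Again there was no overlap (log2 change 0.27, SE 0.0997, edgeR adjusted p = 0.0325). Its call was lost without WT replicate 3 (0.181) and without Trem2_KO replicate 1 (0.0615) or 2 (0.124), with adjusted p from 0.0167 to 0.211 over the alternatives. Acss2 overlaps Gss on the other strand (1725 reads against 1450), which was not called and had a log2 change of -0.18.

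Acly, ATP citrate lyase, which makes cytosolic acetyl-CoA from citrate, was at 439.7, 444 and 449 CPM in WT and 435, 428 and 412 CPM in Trem2_KO. All Trem2_KO libraries were below all WT libraries, by a log2 change of -0.06 (SE 0.0289) that was not called (edgeR adjusted p = 0.0847). It was called only with the gene length trend removed (0.00632), and adjusted p ran up to 0.406 over the alternatives.

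Of the 3 genes of fatty acid synthesis proper 1 was called higher and 0 lower. Fasn, fatty acid synthase, was at 53.8, 58.0 and 64.1 CPM in WT and 58.3, 59.6 and 60.2 CPM in Trem2_KO. The groups overlapped and the log2 change was 0.02, with an interval from -0.09 to 0.13. Acaca, the cytosolic acetyl-CoA carboxylase that makes malonyl-CoA for synthesis, was at 26.7, 27.6 and 33.1 CPM in WT and 27.8, 31.3 and 27.3 CPM in Trem2_KO, again overlapping (log2 change -0.02). Acacb, the mitochondrial carboxylase whose malonyl-CoA restrains fatty acid import for oxidation, was at 0.893, 0.702 and 1.404 CPM in WT and 1.56, 2.79 and 2.94 CPM in Trem2_KO. It was called higher (log2 change 1.27, SE 0.318, edgeR adjusted p = 0.00139), from 11 to 50 reads per library. WT replicate 3 and Trem2_KO replicate 1 lay close together. The call was lost only on the FPKM scales (adjusted p = 0.0501 and 0.0658), where a pseudocount shrinks low values. Per length, Acacb stood at 0.0451 to 0.0753 of Acaca in WT and at 0.0995 to 0.191 in Trem2_KO.

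Of the 2 lipogenic regulators 1 was called higher and 0 lower. Thrsp, the Spot 14 protein linked to lipogenesis, was at 9.06, 7.73 and 7.85 CPM in WT and 10.9, 12.3 and 11.8 CPM in Trem2_KO. No Trem2_KO library overlapped WT, and the log2 change was 0.50 (SE 0.12, edgeR adjusted p = 0.00081). Mlxipl, which encodes the glucose-responsive factor ChREBP, was at 2.81, 3.96 and 4.02 CPM in WT and 3.29, 2.73 and 2.17 CPM in Trem2_KO. Its groups overlapped, and the log2 change of -0.39 (SE 0.215) was not called (edgeR adjusted p = 0.167).

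Of the elongases 1 of 3 was called higher. Elovl5, which lengthens polyunsaturated fatty acids, was at 101.5, 96.0 and 95.8 CPM in WT and 110.1, 103 and 107 CPM in Trem2_KO. The groups did not overlap, with WT replicate 1 nearest to Trem2_KO, and the log2 change was small (0.13, SE 0.0428, edgeR adjusted p = 0.0171). The call was lost without WT replicate 2 (0.0699) or 3 (0.0662) and without Trem2_KO replicate 1 (0.101), and adjusted p ran from 0.00314 to 0.101 over the alternatives. Elovl1, the most abundant elongase, which makes very long saturated chains, was at 116, 110.5 and 113 CPM in WT and 114, 110.6 and 109.6 CPM in Trem2_KO. These overlapped (log2 change -0.02). Elovl6, which lengthens palmitate, had overlapping groups and was at 2.68 ± 0.109 CPM in WT and 3.31 ± 0.894 CPM in Trem2_KO (SD, n = 3).

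The desaturases held the member with the largest change. Fads2, the first desaturase of polyunsaturated fatty acid synthesis, was at 3.89, 4.15 and 3.77 CPM in WT and 10.9, 13.03 and 10.8 CPM in Trem2_KO, from 59 to 65 and 183 to 215 reads. The log2 change was 1.55 (SE 0.142, edgeR adjusted p = 3.95e-13), a fold of 2.93, which exceeded that of 99.2% of all tested genes. Fads2 was called in all 16 alternatives, with log2 changes from 1.26 to 1.64. It ranked 20th of the 38 members by mean FPKM in WT and 10th in Trem2_KO. Fads1, the desaturase that acts after Fads2 in the same pathway, was at 80.6, 91.0 and 85.5 CPM in WT and 78.7, 83.8 and 85.7 CPM in Trem2_KO. These groups overlapped, with a log2 change of -0.05 and an interval from -0.15 to 0.05.

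Fads2 and Fads1 are neighbours on chromosome 19, at 10064164 to 10101503 (minus strand) and 10182888 to 10196870 (plus strand) of GRCm38 as the deposited table gives them. Fads3, at 10041548 to 10059671 on the other side of Fads2, had a log2 change of -0.10 and was not called (edgeR adjusted p = 0.584). The ratio of Fads2 to Fads1 in FPKM was 0.111, 0.1045 and 0.101 in WT and 0.316, 0.356 and 0.2875 in Trem2_KO, so Fads1 remained the more abundant transcript in every library.

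In glycerolipid synthesis 3 of 4 members were called higher and 0 lower. Of 10 other tested genes of glycerolipid synthesis 0 were called higher and 2 lower. Lpin1, a phosphatidate phosphatase that makes diacylglycerol, was at 25.2, 23.8 and 25.3 CPM in WT and 36.0, 34.4 and 32.5 CPM in Trem2_KO, well separated (log2 change 0.47, SE 0.0702, edgeR adjusted p = 2.93e-07). Lpin2, the more abundant lipin here, was at 136, 135 and 139 CPM in WT and 161, 166 and 169 CPM in Trem2_KO, also without overlap (log2 change 0.28, SE 0.037, edgeR adjusted p = 2.57e-08). Lpin2 lies on chromosome 17, 22.9 Mb from Trem2. In FPKM Lpin1 stood at 0.223 to 0.235 of Lpin2 in WT and at 0.244 to 0.283 in Trem2_KO. Gpam, the mitochondrial acyltransferase of the first step, was at 10.3, 9.96 and 11.2 CPM in WT and 12.01, 13.03 and 13.7 CPM in Trem2_KO. Its groups were separate (log2 change 0.30, SE 0.11, edgeR adjusted p = 0.0337), and the call was lost without WT replicate 1 (0.0908) or 2 (0.126) and without Trem2_KO replicate 2 (0.0816) or 3 (0.132), with adjusted p from 0.0187 to 0.148 over the alternatives. Agpat2, the next acyltransferase, overlapped between groups (log2 change 0.05), and it overlaps the endothelial gene Egfl7 on the other strand.

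Of the 12 called members 6 were called in all 16 alternatives, namely Fads2, Me1, Thrsp, Lpin1, Lpin2 and Insig1. Groups did not overlap, in either direction, for 16 of 37 tested members, against 41.6% of all tested genes. By direction, 12 of the 37 were higher without overlap and 4 lower, against 20.8% each way over all genes.

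Other genes of these pathways, listed beside the members, were called in both directions. Over all tested genes 15.3% were called higher and 15.1% lower, and no list was tested against these shares. Among 10 other tested genes of sterol synthesis and uptake 2 were called higher and 1 lower. The lower one was Dhdds, of dolichol synthesis, at 48.8 ± 1.42 CPM in WT and 43.4 ± 0.738 CPM in Trem2_KO (SD, n = 3, edgeR adjusted p = 0.0183). Of 12 genes around SREBP processing 2 were called higher and 1 lower. Soat1, which esterifies cholesterol for storage, rose from 391 ± 13.5 to 433 ± 6.12 CPM (SD, n = 3, log2 change 0.15, edgeR adjusted p = 7.49e-05). Mbtps1, the first protease that cuts SREBP, rose by 0.13, and Rnf145, a sterol-responsive ubiquitin ligase, fell by 0.15 on the log2 scale. Srebf1, which encodes SREBP1, was at 106, 108.7 and 101.1 CPM in WT and 95.3, 106 and 104.6 CPM in Trem2_KO. These groups overlapped and it was not called (log2 change -0.05, SE 0.0443, edgeR adjusted p = 0.473).

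Among 23 other tested genes of fatty acid synthesis, elongation and desaturation 4 were called higher and 4 lower. Scd1, the stearoyl-CoA desaturase, was at 230.03, 241 and 238 CPM in WT and 294, 293 and 299 CPM in Trem2_KO, without overlap (log2 change 0.32, edgeR adjusted p = 4.81e-12). Its neighbour Scd2 had a log2 change of -0.02 and was not called. Aacs, which activates acetoacetate for lipid synthesis, fell by 0.90 and Mid1ip1, the partner protein of Thrsp, fell by 0.53 on the log2 scale (edgeR adjusted p = 6.63e-09 and 2.14e-07). Acsl4, which activates polyunsaturated fatty acids, rose by 0.20. Among 10 other tested genes of glycerolipid synthesis 0 were called higher and 2 lower, Agpat5 (-0.33) and Gpat4 (-0.14). Of 12 LXR receptors and targets 3 were called higher and 3 lower, with the cholesterol exporters Abca1 at 0.21 and Abcg1 at 0.28, Smpdl3a at -0.17 and Plin2 at -0.09. The receptors Nr1h2 and Nr1h3 were not called, at 0.04 and -0.06.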

How the data were processed

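The deposited count table holds whole read counts per gene with no normalization, and a second table deposited by the authors holds FPKM, which on inspection are the counts over gene length and over a library constant (0.989 to 1.02 times the total). Per the submitters' processing notes, the tools included DESeq2 1.16.1, featureCounts 1.5.0-p3 and HISAT2 2.0.5, and the build was GRCm38 (mm10). Whether counting used strand, and what was done with ambiguous reads, was not stated. A count of 3, the limit that a count of 0 allows, is 0.175 to 0.19 CPM, for counting error only.

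Counts were fitted in R 4.3.3 with edgeR 4.0.16 (filterByExpr, TMM, quasi-likelihood test with robust dispersion, genotype as the only term) on the whole table. Of 54532 genes 13776 were tested, with Benjamini-Hochberg adjustment over all of them. Standard errors (log2 change over the root of F) and 95% intervals come from the same test. Alternatives were RLE and total-count scaling, 2 filters, DESeq2 1.42.0, limma 3.58.1 (voom, and log2 FPKM with a pseudocount of 1 or 0.1), a replicate block, removal of a gene length trend, and leaving out each library. The main fit, the replicate block, the gene length trend, voom and DESeq2 were tested on simulated data. The other alternatives were not. The simulated counts held no length trend and no replicate effect, so they could not test how well these are removed. A smaller share of genes was changed in them than was called here, so error rates at the present share were not tested. Groups and replicate numbers come from the sample titles. Values in every library are given for each called member, each member not called whose groups do not overlap, and the member of each role with the highest FPKM. For other lists up to 4 members by smallest p are named, and other genes named (Srebf1, Scd2, Fads3, Nr1h2 and Nr1h3) were added after their values were seen. A few genes of those lists are counted but not reported here by name. The members and lists were chosen with earlier results of these data known.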

Additional observations from a re-analysis of the deposited data

How the results depend on the processing

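The fatty acid branch kept 6 to 9 members called higher over all 16 alternatives, 6 with DESeq2 and with either FPKM scale, and 7 to 8 when a library was left out. With the gene length trend removed 1 fatty acid member was called lower. The fatty acid median was 0.30 with total counts, 0.12 and 0.22 on log2(FPKM + 1) and log2(FPKM + 0.1), 0.15 with the gene length trend removed, and 0.13 to 0.28 when a library was left out. The sterol branch had 2 members called higher with RLE factors, with total counts and with a filter of CPM of at least 1 in 3 libraries, and 1 to 2 when a library was left out. It had 0 called lower with total counts, DESeq2 or the gene length trend removed, 1 with the CPM filter or log2(FPKM + 1), and 0 to 2 when a library was left out. Its median was 0.0246 with total counts and -0.0153 to 0.031 when a library was left out. No called member changed sign. The log2 change of Me1 was 0.38 and that of Acacb 0.18 on log2(FPKM + 1), which understates changes of low genes. Over all genes 4182 were called, 2103 higher and 2079 lower, against 2517 and 1588 with total counts and 1428 and 1384 with DESeq2. The cause of these differences was not tested. Deviations of same-numbered libraries correlated at -0.01, 0.00 and 0.04. No pairing by number was seen, but with 3 libraries per group these values cannot exclude one. With the replicate block the members called were those of the fit without it (9 higher and 0 lower, 1 higher and 2 lower), and 4230 genes were called in all. Hsd17b7 (10 to 29 reads per library) and Fdps (1 to 7) had few reads, which limits the precision of their values.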
